A study of Rattus norvegicus with 10 samples.

Results

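The interferon and antigen presentation genes Irgm, Irf1, Igtp, B2m, Tap1, Psmb8, Psmb9, Cd74 and RT1-Da were followed in rat gastrocnemius, a calf muscle, under calorie restriction (CR). Every probe set that the platform annotation pairs with 1 of these genes alone was taken, which gave 12 of the 31099 probe sets on the array, for 9 genes. Of these 12, 10 passed the filter on low signal and were tested among 15521 probe sets, and both probe sets of Tap1 fell below it. A probe set annotated to Igtp together with Igtpl1 and Irgm2 was not used (signal of 5.3 to 14.8 over the arrays).

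The muscle came from male Wistar rats without a genetic change, 6 weeks old when feeding began, that were killed after a 16 h fast. Rats on 5%, 10%, 20% or 30% CR received that much less than the daily intake of freely fed rats, and controls received all of it, for 1 month or for 1 week. Each of the 10 groups was measured once, on an Affymetrix rat genome array hybridised with a pool of 5 rats. The spread between rats was therefore not measured, neighbouring levels cannot be set against a spread, and the fits use slopes and contrasts over 8 or 10 arrays. The title and diet label of the 1-week control and of the 1-week 5% CR array were followed here, but a description line of each states the opposite feeding, and the exchange of these arrays was run as an alternative.

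Values are MAS5 signals, a linear brightness per probe set. The trimmed mean signal was 86.4 on each 1-month array and 99.6 on each 1-week array, so that changes with CR were read within a duration. The muscle fibre marker Acta1, skeletal alpha-actin, was at 7237.3 to 12425.2, whereas the T cell marker Cd3d was at 0.4 to 3.8. The actin 3' to 5' ratio, a sign of RNA quality, was 1.24 to 1.56 on restricted arrays and 1.70 on the control array at 1 week. At 1 month it was 1.37 to 1.60 on restricted arrays and 1.44 on the control array.

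Interferon-gamma signals through the kinases JAK1 and JAK2 and acts on promoters that hold gamma-activated sites (GAS), whereas type I interferons act mainly through a complex that binds interferon-stimulated response elements (ISRE). IRF1 is itself induced by interferon-gamma and binds ISRE-like sites. Its targets include immunity-related GTPases, which guard cells against intracellular pathogens, and the class I pathway, in which the immunoproteasome cuts proteins, TAP moves the peptides into the endoplasmic reticulum and beta-2-microglobulin holds the class I molecule together. Class II molecules, with their invariant chain Cd74, are made chiefly by professional antigen-presenting cells, and resting muscle fibres express little of either class.

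The promoter stretches below are shown because they hold the GAS or ISRE letters of the genes whose signals are compared. All 9 genes were matched to the RefSeq promoter table (assembly GRCr8), which gives 250 bases before and 50 bases from each gene start. The letters searched were TTCNNNGAA for GAS and GAAANNGAAA for ISRE, on both strands. No match of one motif overlapped a match of the other in these genes. Capitals mark the matching letters, and each stretch reads 5' to 3' on the strand of the gene.

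Irgm, GAS then ISRE, chr10:33742593-33742633, minus strand: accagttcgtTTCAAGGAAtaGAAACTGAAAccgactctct

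Igtp, GAS then ISRE, chr10:42874923-42874963, plus strand: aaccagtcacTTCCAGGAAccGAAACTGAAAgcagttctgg

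Irf1, GAS, chr10:38417783-38417811, plus strand: acagcctgatTTCCCCGAAatgatgaggc

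B2m, ISRE, chr3:129549170-129549199, plus strand: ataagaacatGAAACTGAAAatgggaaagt

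Tap1, ISRE on the opposite strand, chr20:4668645-4668674, minus strand: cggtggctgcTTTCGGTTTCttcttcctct

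Psmb8, ISRE on the opposite strand, chr20:4657016-4657045, minus strand: gtgctgtggcTTTCGCTTTCacttccttgt

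GAS letters stood in 4 of the 9 promoters, against 8.87% of 33469 promoters in the table. ISRE letters stood in 5 of the 9, against 3.92% of all promoters, and both stood in 3, against 0.514%. The third with both was Psmb8, whose GAS letters lie 245 to 237 bases before the start. In Irgm and in Igtp the ISRE letters began 11 bases after the GAS letters. This spacing, noticed after the sequences were seen, occurred in 7 of the 33469 promoters, those of Igtp, Irgm, Irgm2, Ifgga2l2, LOC134480693, Parp14 and Stra8. Psmb9, Cd74 and RT1-Da held neither run of letters in this window. The windows of Tap1 and Psmb9, which are neighbours read from opposite strands on chromosome 20, share 44 bases. A match describes the letters and is no evidence of binding.

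**Figure D1:**
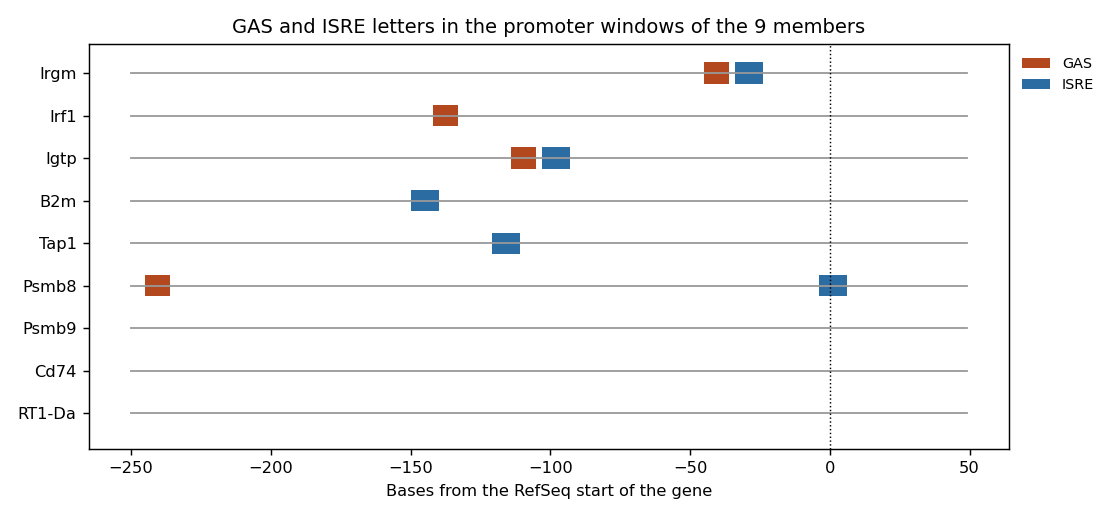
Position of GAS and ISRE letters (coloured boxes) in the promoter windows of the 9 genes, in bases from the RefSeq gene start on the x axis. Irgm and Igtp carry both side by side, Psmb8 carries both far apart, and the last 3 genes carry neither.

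Irgm, an immunity-related GTPase that in the mouse controls other GTPases of its family and autophagy, had the steepest slope with CR of the 10 tested probe sets. Its signal was 91.8 in the control and 67.2, 52.6, 38.9 and 42.3 at 5, 10, 20 and 30% CR for 1 month. For 1 week it was 163.4 in the control and 70.2, 78.6, 82.5 and 42.2 at the same levels. All 8 restricted arrays were below the control of their duration, with no overlap at either duration, and the 1-week control was the brightest array. The log2 ratio to the control was -1.24 to -0.45 at 1 month and -1.95 to -0.99 at 1 week. The signal was down-regulated with the level of CR, with a slope of -0.42 ± 0.085 log2 per 10 percentage points (SE, 10 arrays), an adjusted p of 0.0205 by limma. Over the 8 restricted arrays against the 2 controls, Irgm was down-regulated by a log2 difference of -1.10 ± 0.24 (SE, adjusted p = 0.0272 by limma), 0.466 of the control level.

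These calls rested on single arrays. Without the 1-week control the slope of Irgm was -0.34 (adjusted p = 0.0816 by limma) and the difference between restricted and control arrays -0.90 (adjusted p = 0.290). Without the 1-month control they were -0.39 (adjusted p = 0.0854) and -1.30 (adjusted p = 0.111), and without the 1-week 30% CR array the slope was -0.37 (adjusted p = 0.151). The slope was -0.37 at 1 month (adjusted p = 0.254) and -0.47 at 1 week (adjusted p = 0.121) when each duration was fitted alone. With the 1-week control and 5% CR arrays exchanged, the slope was -0.37 (adjusted p = 0.105) and the difference between restricted and control arrays -0.34 (adjusted p = 0.782), and 5 of 8 ratios were below 0. Among the 8 restricted arrays alone the slope was -0.27 ± 0.088 (SE, adjusted p = 0.283 by limma). In pooled tissue RNA, fewer cells of a type and less RNA per cell cannot be told apart.

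Irf1, the interferon-induced transcription factor, lay below the control on every restricted array, by less than Irgm. Its signal was 71.4 in the control and 57.5, 52.4, 52.1 and 48.9 at 5, 10, 20 and 30% CR for 1 month. For 1 week it was 77.5 in the control and 62.3, 62.8, 69.5 and 53.5 at the same levels. The lowest signal of each duration was at 30% CR. With the 1-week control and 5% CR arrays exchanged, 5 of 8 ratios of Irf1 were below 0. The slope was -0.13 ± 0.052 log2 per 10 percentage points (SE, adjusted p = 0.243 by limma), and the difference between restricted and control arrays was -0.38 ± 0.14 (SE, adjusted p = 0.185). Neither passed the threshold.

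Igtp, the interferon-gamma induced GTPase, known in the mouse as a protein of the endoplasmic reticulum, was read by 2 probe sets. The first was at 86.8 in the control and 84.7, 79.1, 77.8 and 79.4 at 5, 10, 20 and 30% CR for 1 month. For 1 week it was at 90.7 in the control and 83.6, 67.0, 68.6 and 78.4. All 8 restricted arrays were below their control, by -0.44 to -0.04 on the log2 scale. With each array centred on its median, 6 of 8 ratios were below 0. The second was at 32 in the control and 28.2, 34.7, 26.2 and 28.8 for 1 month, and at 51.9 in the control and 19.2, 27.5, 32.6 and 25.0 for 1 week. Its restricted arrays lay far below the control at 1 week and on both sides of it at 1 month. The difference between restricted and control arrays was -0.20 ± 0.12 (SE, adjusted p = 0.485 by limma) for the first and -0.57 ± 0.24 (SE, adjusted p = 0.292) for the second. For the second it was -0.13 (adjusted p = 0.917) without the 1-week control and 0.32 (adjusted p = 0.705) with the 1-week control and 5% CR arrays exchanged.

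**Figure D2:**
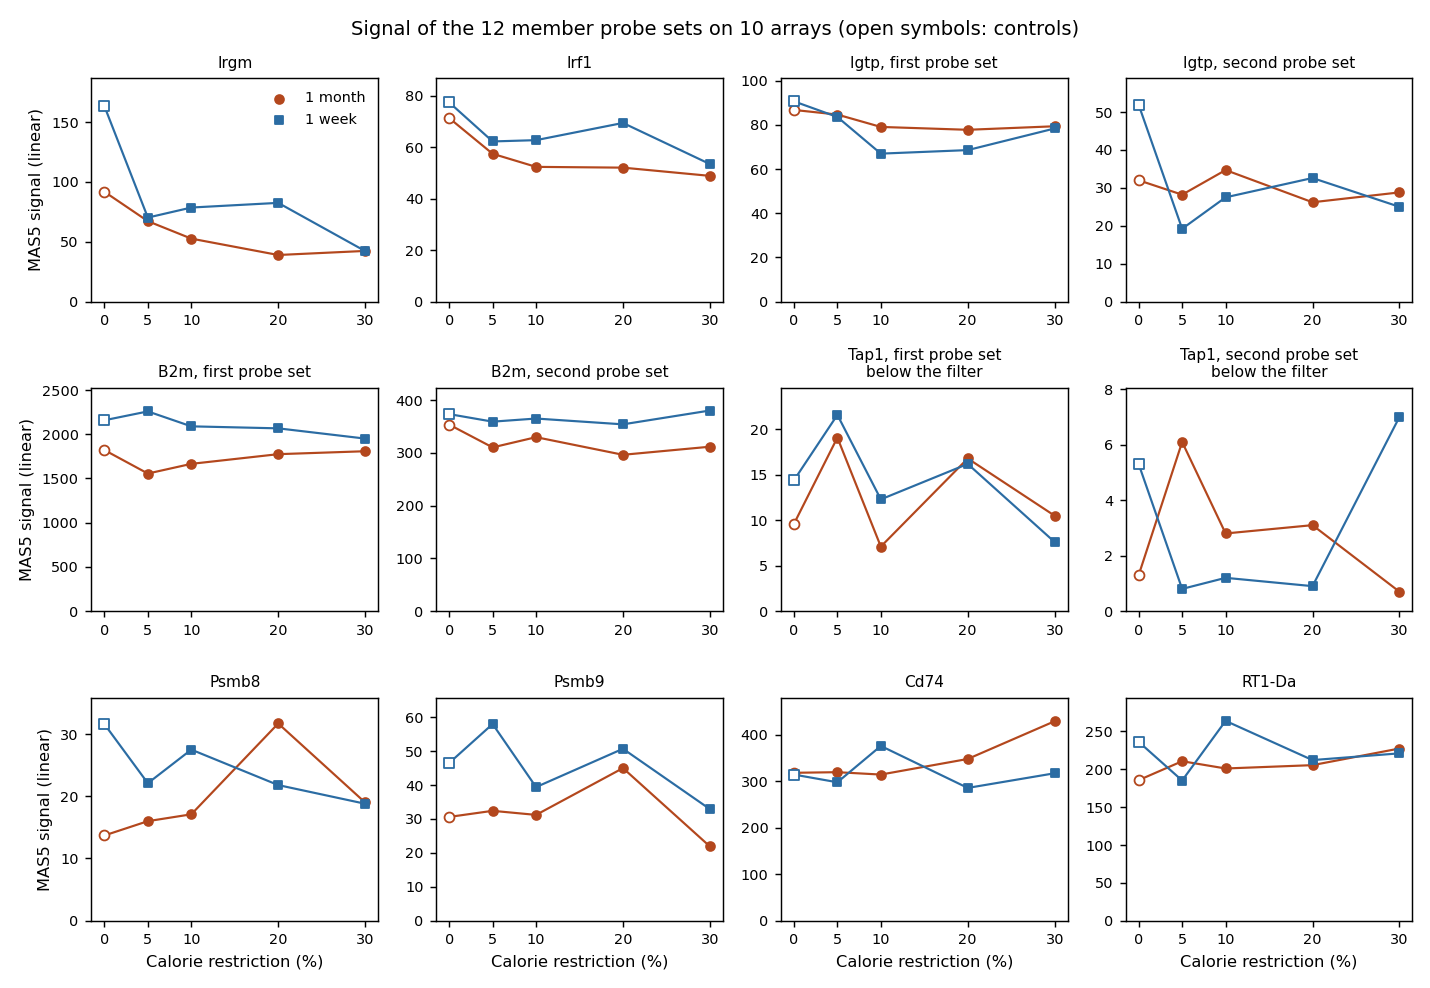
MAS5 signal (linear, y axis) of the 12 probe sets against the level of CR in percent (x axis), at 1 month (circles) and 1 week (squares), 1 array per point and open symbols for controls. Irgm and Irf1 are highest in the control at both durations, whereas Cd74 is highest at 30% CR for 1 month.

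In the class I pathway, B2m, the light chain of class I molecules, stayed near its control. The signal of the first of its 2 probe sets was 1821.3 in the control and 1555.7, 1665.3, 1774.8 and 1808.0 at 5, 10, 20 and 30% CR for 1 month, and 2158.3 in the control and 2258.4, 2089.5, 2066.9 and 1951.0 for 1 week. That of the second was 296.2 to 329.6 on restricted arrays and 353.4 in the control at 1 month, and 353.9 to 380.1 on restricted arrays and 373.3 in the control at 1 week. Each probe set had 7 of 8 ratios below 0. The differences between restricted and control arrays were -0.074 (95% interval -0.23 to 0.085, adjusted p = 0.717 by limma) and -0.11 (95% interval -0.27 to 0.052, adjusted p = 0.561).

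Tap1, a subunit of the peptide transporter, was too dim to compare. Its first probe set ranged between 7.1 and 19.1 on restricted arrays and was 9.6 in the control at 1 month, and between 7.6 and 21.6 on restricted arrays and 14.4 in the control at 1 week. Its second probe set was at 0.7 to 6.1 on restricted arrays and 1.3 in the control at 1 month, and at 0.8 to 7.0 on restricted arrays and 5.3 in the control at 1 week. The restricted arrays lay on both sides of the control at both durations, and with no filter on low signal the slopes were -0.15 and -0.090 (adjusted p = 0.848 and 0.967 by limma).

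Psmb8 and Psmb9 encode the immunoproteasome subunits that replace constitutive catalytic subunits. Psmb8 was at 13.7 in the control and 16.0, 17.1, 31.7 and 19.0 at 5, 10, 20 and 30% CR for 1 month. For 1 week it was at 31.6 in the control and 22.1, 27.5, 21.8 and 18.8. All 4 restricted arrays were above the control at 1 month and all 4 were below it at 1 week, where 8.67% of all tested probe sets had opposite signs in this way, and several of these signals were near the filter, a mean signal of 17.8. With the exchange, 2 of 8 ratios of Psmb8 were below 0. The slope at 1 month exceeded that at 1 week by 0.44 ± 0.20 log2 per 10 percentage points (SE, adjusted p = 0.812 by limma). Psmb9 was at 30.6 in the control and 32.4, 31.2, 45.0 and 21.9 for 1 month, and at 46.5 in the control and 58.0, 39.4, 50.7 and 32.9 for 1 week. Its restricted arrays lay on both sides of the control, with the lowest signal of each duration at 30% CR, and the slope was -0.12 ± 0.087 (SE, adjusted p = 0.566 by limma).

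Of the class II genes, Cd74, the invariant chain that escorts class II molecules, was at 317.8 in the control and 319.1, 314.0, 347.5 and 428.6 at 5, 10, 20 and 30% CR for 1 month. For 1 week it was at 314.0 in the control and 297.4, 375.5, 285.3 and 316.8. RT1-Da, a class II alpha chain, was at 185.7 in the control and 210.7, 201.1, 205.5 and 227.5 for 1 month, and at 236.3 in the control and 185.2, 264.0, 212.2 and 221.1 for 1 week. At 1 month all 4 restricted arrays of RT1-Da were above the control, and at 1 week they lay on both sides of it. Their slopes were 0.063 ± 0.042 for Cd74 and 0.033 ± 0.042 for RT1-Da (SE, adjusted p = 0.537 and 0.785 by limma).

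**Figure D3:**
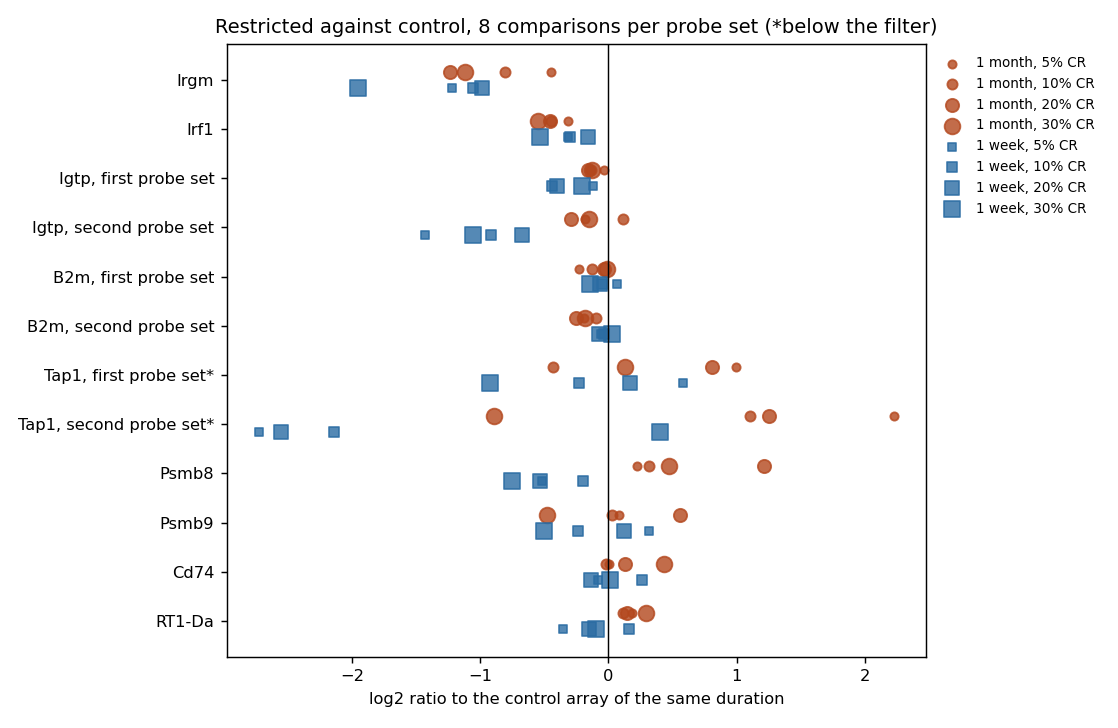
Log2 ratio to control within a duration (x axis), 1 point per restricted array, for the 12 probe sets, at 1 month (circles) and 1 week (squares), with larger symbols for higher CR and an asterisk for probe sets below the filter. The ratios of Irgm, Irf1 and Igtp (first probe set) are all below 0, and those of Psmb8 are above 0 at 1 month and below 0 at 1 week.

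Over the 10 tested probe sets, 1 was called in the dose trend, Irgm, against 2.0% of all tested probe sets (0.941% higher and 1.06% lower). In restricted against control 1 was called, again Irgm, against 2.0% of all (1.13% higher and 0.876% lower). Ratios were below 0 in all 8 comparisons for 3 of the 10, Irgm, Irf1 and Igtp (first probe set), against 8.36% of all tested probe sets, and none of the 10 had all 8 above 0, against 8.20%. The 4 ratios of a duration share 1 control array. With the 1-week control and 5% CR arrays exchanged, only B2m (first probe set) had all 8 ratios below 0 among the 10. Among the 8 restricted arrays alone, no probe set of the 10 passed by limma and 1 had an unadjusted p under 0.05, where 0.245% of all tested probe sets passed (0.129% higher and 0.116% lower). No probe set of the 10 had a slope that passed as different between 1 month and 1 week (1 had an unadjusted p under 0.05), and of all tested probe sets 0.00% passed.

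The rats were all 6 weeks old when feeding began, so 1-month rats, controls included, were older at sampling than 1-week rats. The arrays of each duration had also been scaled as a separate set. Duration was therefore not separated from age or array set in any difference between the durations, and the part of each was not tested. Between the durations, on signals scaled to the same trimmed mean, Cd74 was called higher at 1 month. Its scaled signal had a lowest value of 338.0, a median of 343.5 and a highest value of 461.3 on the 1-month arrays, against 266.4, 293.2 and 350.6 on the 1-week arrays. It was higher at 1 month at 4 of 5 levels, and the ranges overlapped through the 1-week 10% CR array. The difference was 0.32 ± 0.090 log2 (SE, adjusted p = 0.0345 by limma), 1.25 times the 1-week level. It was the only call among the 10, where 10.0% of all tested probe sets were called (4.45% higher and 5.55% lower). The adjusted p by limma was 0.0105 to 0.106 with each array left out in turn and above 0.05 in 6 of these 10 fits. It was highest without the 1-month 30% CR array, where the difference was 0.24 log2. Signals as deposited gave a difference of 0.12 log2 (adjusted p = 0.329 by limma). The other class II gene, RT1-Da, differed by 0.093 ± 0.091 (SE, adjusted p = 0.579).

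Igtp (first probe set) was higher at 1 month at all 5 levels after scaling, with 83.7 to 93.4 on the 1-month arrays and 62.6 to 84.7 on the 1-week arrays. The difference of 0.28 ± 0.10 log2 (SE, adjusted p = 0.0918 by limma) did not pass. Irgm differed by -0.31 ± 0.18 (SE, adjusted p = 0.330) and Psmb9 by -0.30 ± 0.19 (SE, adjusted p = 0.353). Irf1 and both probe sets of B2m lay within 0.1 log2 of no difference.

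**Figure D4:**
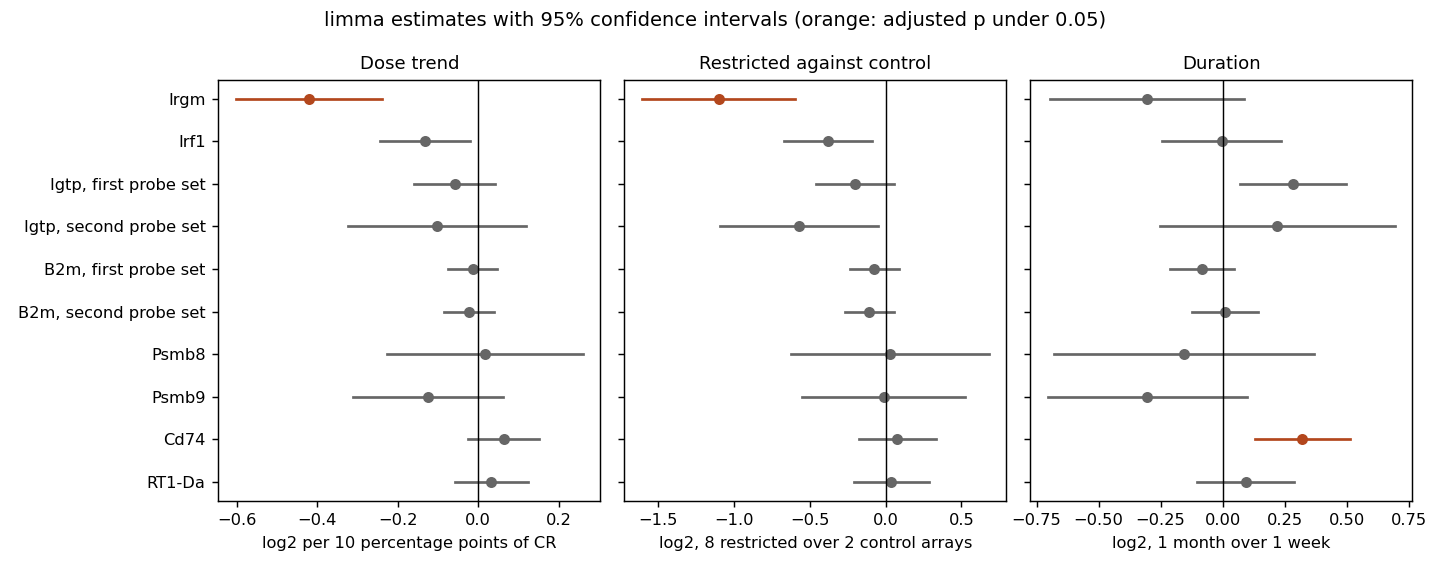
limma estimates (points) with 95% confidence intervals (lines) for the 10 tested probe sets, on log2 axes, with those of an adjusted p under 0.05 in orange. Irgm is called in the dose trend and in restricted against control, and Cd74 in the duration contrast.

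Across the 10 arrays, with each duration centred on its own mean, Irgm and Irf1 moved most alike among the 12 probe sets (Pearson r = 0.93). The class II pair Cd74 and RT1-Da had an r of 0.75, and Irgm had an r of 0.70 with the second probe set of Igtp and 0.48 with the first. Psmb8 ran opposite to the second probe set of B2m (r = -0.62) and not to the first (r = 0.29). Outside the 9 genes, the patterns most like Irgm were those of Socs5 (r = 0.97), Zbed4 (r = 0.96) and Tmem100 (r = 0.96). Those most like the mean of the 9 genes, which included Tap1 though it was below the filter, were Pbrm1, Rtel1 and Armcx2 (r = 0.98, 0.97 and 0.96). These are descriptions over the same 10 arrays, which share 2 controls, and were picked from all tested genes.

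Of the wider pathway, 95 genes were tested in 6 lists. The other interferon-gamma GTPases and chemokines had 4 tested genes, and none passed in the dose trend, in restricted against control or in duration by limma (0, 0 and 2 had an unadjusted p under 0.05). Irgm2, a GTPase of the same family whose promoter shares the spacing of Irgm, was at 83.0 to 100.4 on restricted arrays and 116.3 in the control at 1 month, and at 91.7 to 124.0 on restricted arrays and 110.5 in the control at 1 week (slope of -0.056 ± 0.049, SE). All 4 restricted arrays were below the control at 1 month only. Cxcl9, an interferon-gamma induced chemokine, was at 135.7 to 159.4 on restricted arrays and 153.8 in the control at 1 month, and at 202.3 to 220.8 on restricted arrays and 144.2 in the control at 1 week.

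Of the type I interferon-stimulated genes 6 passed with duration. At 1 month, 25 of 26 tested genes had an estimate below 0 (49.9% of all 9170 genes), with a median of -0.37 log2 against 0.00 for all genes, and 6 of 26 were called lower, against 5.37% of all genes. The list median was -0.17 with 32 added to each signal. With median centring it was -0.28, where 22 of 26 were below 0 and all tested probe sets had a median of 0.08. The 7 genes that passed a filter at the 70th percentile were all below 0, with a median of -0.37. The list as a whole was not tested. Ifi27l2b, a small interferon-induced protein, was at 54.5 to 85.1 on the 1-month arrays and 152.9 to 188.0 on the 1-week arrays (deposited signals), a scaled difference of -0.99 ± 0.11 log2 (SE, adjusted p = 0.00010 by limma). Ifit2, an inhibitor of viral translation, fell by 0.60 (adjusted p = 0.00298), and Bst2, the tetherin that holds budding virus, by 0.49 (adjusted p = 0.000973). Isg15, the ubiquitin-like modifier, fell by 0.71 (adjusted p = 0.0278), but its call was lost in 6 of 10 fits that left out 1 array, with an adjusted p of up to 0.0797 without the 1-week 5% CR array. Ifitm2 and Ifitm3, membrane proteins that block viral entry, were the others, each lost in 4 of 10 such fits. The count called lower was 3 to 6 when an array was left out in turn, 4 with median centring and 16 on signals as deposited, where all tested probe sets had a median of -0.21. Beside this, all 10 endothelial markers had estimates below 0 (2 called lower, Kdr and Emcn, the call of Emcn being lost in 7 of 10 fits that left out 1 array). So did 10 of 12 muscle fibre markers (1 called lower, Ttn). Of 13 macrophage markers 10 had estimates above 0 and 3 below it. Lyz2 was called higher (0.46, adjusted p = 0.00557 by limma) and Mrc1 lower (-0.45, adjusted p = 0.0263). Of all genes 4.90% were called higher and 5.37% lower. Mrc1 lost its call without the 1-week 5% or 10% CR array (adjusted p = 0.0716 and 0.0642 by limma). The same held without the 1-month 5% or 10% CR array (0.0677 and 0.0601), with median centring (0.0563) and with the level of CR as a block (0.0580). Ttn lost its call without the 1-month 30% CR array (0.0544), with quantile normalization (0.0990), with median centring (0.172) and by eBayes without trend (0.0608). The part of these cell types in the difference was not tested.

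The dose trend called few genes of these lists. Bst2 was the only type I gene called, against 1.07% of all genes called lower. Its signal was 142.5 in the control and 123.5, 110.2, 114.7 and 92.9 at 5, 10, 20 and 30% CR for 1 month, and 233.1 in the control and 215.8, 189.1, 166.7 and 145.4 for 1 week. All 8 restricted arrays were below their control, and at 1 week each level was below the one before, whereas 7 of 8 were below with the 1-week control and 5% CR arrays exchanged (slope of -0.19, adjusted p = 0.0263 by limma), and 5% CR for 1 week was then above its control. None of the 26 passed in restricted against control by limma (2 had an unadjusted p under 0.05). The slope of Bst2 was -0.20 ± 0.035 log2 per 10 percentage points (SE, adjusted p = 0.00909 by limma) and lost its call without the 1-week 30% CR array (-0.19, adjusted p = 0.0714).

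Among the receptors, JAK-STAT members and IRF regulators, 19 were tested and none passed in the dose trend or in restricted against control by limma (4 and 3 had an unadjusted p under 0.05). With duration, the kinase gene Jak2 rose by 0.47, and Irf7, a regulator of type I responses, and Stat3, a cytokine-activated transcription factor, fell by 0.51 and 0.29 (adjusted p = 0.0267, 0.0309 and 0.0188 by limma). Of all genes 4.90% were called higher and 5.37% lower. The calls of Jak2, Irf7 and Stat3 were lost in 6, 7 and 3 of the 10 fits that left out 1 array. Irf7 and Stat3 also lost theirs with median centring (adjusted p = 0.0875 and 0.168) and by eBayes without trend (0.0547 and 0.0544), and Jak2 on signals as deposited (0.111).

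In class I antigen processing 21 genes were tested, and none passed in the dose trend by limma (3 had an unadjusted p under 0.05). Hspa5, an endoplasmic reticulum chaperone, was down-regulated in restricted against control (-0.29 ± 0.070 log2, SE, adjusted p = 0.0481 by limma, where 1.21% of all genes were called higher and 0.981% lower), with a call lost in 9 of 10 fits that left out 1 array -0.21 (adjusted p = 0.437) without the 1-month control and -0.19 (adjusted p = 0.522) with the 1-week control and 5% CR arrays exchanged. With duration, Pdia3, a chaperone of the peptide-loading complex, fell by 0.41 (adjusted p = 0.00137) and Nrdc, a metalloendopeptidase, rose by 0.25 (adjusted p = 0.0195, lost without the 1-month 5% or 10% CR array, 0.0544 for the second, and 0.0682 by eBayes without trend), with 0.046 (adjusted p = 0.589) on signals as deposited.

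In class II antigen presentation 12 genes were tested, and 2 were called higher in the dose trend, against 1.12% of all genes. Slopes were above 0 for 11 of the 12 and below 0 for 1, where 48.8% of all genes had a slope below 0. None passed in restricted against control by limma (3 had an unadjusted p under 0.05). Ctss, cathepsin S, which trims the invariant chain, was at 92.1 in the control and 90.9, 109.1, 122.0 and 174.7 at 5, 10, 20 and 30% CR for 1 month, and at 96.9 in the control and 123.4, 98.7, 126.7 and 169.6 for 1 week. The 30% CR array was the brightest at both durations. For Ctss 7 of 8 ratios were above 0, and 5 of 8 with the 1-week control and 5% CR arrays exchanged. Its slope was 0.27 ± 0.046 (SE, adjusted p = 0.00728 by limma), and 0.26 (adjusted p = 0.0619) without the 1-week 30% CR array. Ctsl, the lysosomal protease cathepsin L, had a slope of 0.20 ± 0.037 (SE, adjusted p = 0.0131), and 0.16 (adjusted p = 0.0804) without the 1-month 30% CR array. All 8 ratios of Ctsl were above 0, and 7 of 8 with the exchange. With duration, where 4.90% of all genes were called higher, RT1-Ba, a class II alpha chain, rose by 0.64 ± 0.12 (SE, adjusted p = 0.00324) and kept its call in each of the 10 fits that left out 1 array. Ctsd, a lysosomal protease, rose by 0.20 and Ifi30, an interferon-gamma induced thiol reductase, fell by 0.36 (adjusted p = 0.0468 and 0.0183), with calls lost in 8 and 3 of these fits and both with median centring (adjusted p = 0.0548 and 0.0823). None of the 13 constitutive 20S proteasome subunits tested passed in any of these 3 fits by limma (2, 0 and 1 had an unadjusted p under 0.05), with slopes of 0.052 ± 0.022 for Psmb1 and 0.061 ± 0.027 for Psmb3 (SE). Of these 13 subunits 11 also had a slope above 0.

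**Figure D5:**
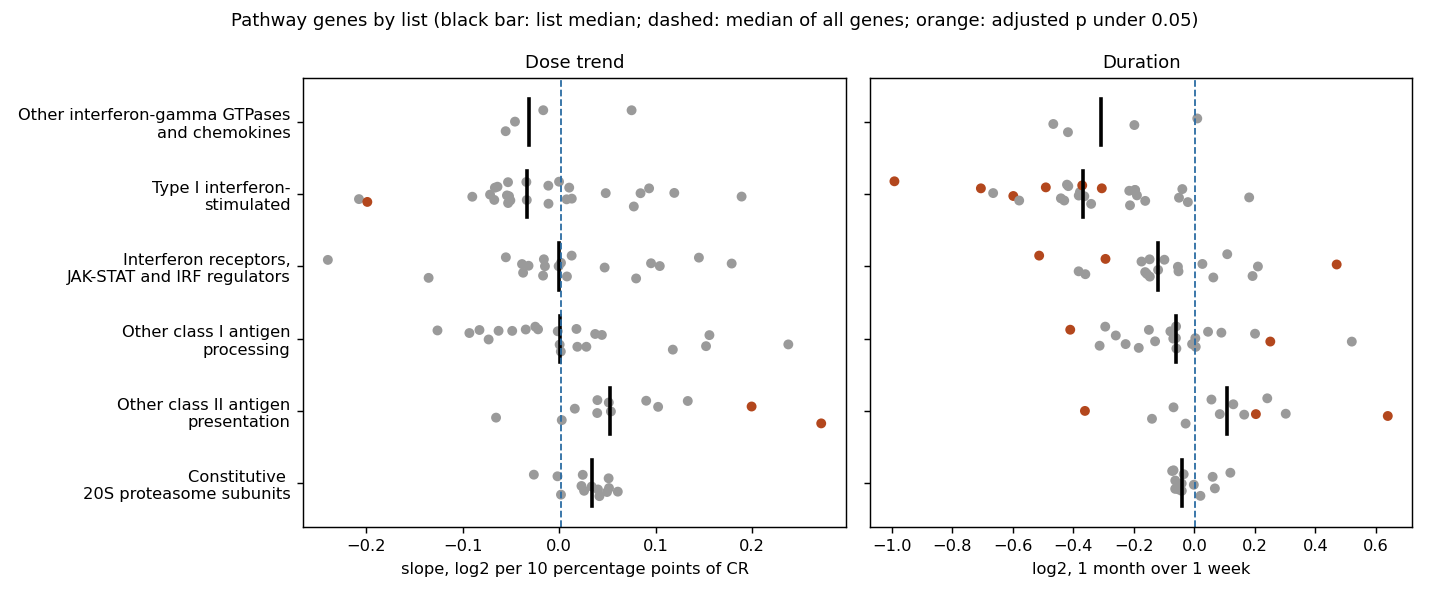
limma estimates of the pathway genes by list, each point 1 gene, for the dose trend (left) and for 1 month against 1 week (right) on log2 axes, with the list median as a black bar, the median of all genes as a dashed line and an adjusted p under 0.05 in orange. Of the type I interferon-stimulated genes 25 of 26 lie below 0 in the duration panel, with a median of -0.37.

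Markers of other cell types moved on the same arrays. The summed signal of 15 macrophage markers was 735 to 1267 on restricted arrays and 719 in the control at 1 month, and 913 to 963 on restricted arrays and 794 in the control at 1 week. With the 1-week control and 5% CR arrays exchanged, 1 restricted sum at 1 week (794) was below its control (913). Of the 13 tested macrophage markers 10 had a slope above 0 and 3 below it, among them Fcgr1a, an Fc receptor (-0.33). Of all genes 48.8% had a slope below 0. In this list C1qb and C1qc, chains of complement C1q, had slopes of 0.31 and 0.38 (adjusted p = 0.0262 and 0.0161 by limma), and Cd163, a scavenger receptor, was up-regulated by 1.25 in restricted against control (adjusted p = 0.0123). Of all genes 1.12% were called higher in the dose trend and 1.21% in restricted against control. The estimate of Cd163 was 0.68 (adjusted p = 0.272) without the 1-week control and 0.27 (adjusted p = 0.841) with the exchange. C1qb and C1qc lost their calls in 4 and 2 of 10 fits that left out 1 array, with an adjusted p of up to 0.167 and 0.0939 without the 1-month 30% CR array. Both calls were also lost by eBayes without trend (adjusted p = 0.0864 and 0.0811 by limma). The estimates of C1qb, C1qc and Cd163 had the opposite sign to that of Irgm and the same sign as that of Ctss. The summed signal of 10 endothelial markers was 748 to 844 on restricted arrays and 853 in the control at 1 month, and 916 to 1275 on restricted arrays and 1044 in the control at 1 week. With the 1-week control and 5% CR arrays exchanged, the restricted sums at 1 week (916 to 1226) were all below their control (1275). Of the 10 endothelial markers 8 had a slope below 0 (median -0.067), against 48.8% of all genes. Kdr, the VEGF receptor, was called (-0.36 ± 0.047, SE, adjusted p = 0.00153 by limma), the same direction as Irgm, where 1.07% of all genes were called lower. In restricted against control 6 of the 10 were above 0 (median 0.060), and none passed by limma (3 had an unadjusted p under 0.05).

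The brightest genes of these 2 lists were Lyz2 (228.4 to 462.7) and C1qa (72.6 to 168.8), and Tek (117.6 to 201.8) and Emcn (105.9 to 198.6). Most lymphocyte and dendritic markers were dim, the brightest being Itgae (64.3 to 138.6), Clec10a (29.4 to 55.2) and Cd22 (23.3 to 40.2). The sum of 6 dendritic markers was 117 to 156 on restricted arrays and 199 in the control at 1 month, and 135 to 196 on restricted arrays and 172 in the control at 1 week, most of it from Itgae and Clec10a. These 2 had slopes of opposite sign, -0.25 for Itgae and 0.16 for Clec10a. Neither passed by limma (smallest adjusted p = 0.0678), and 2 had an unadjusted p under 0.05. For 16 T and NK cell markers, led by Cd4 and Lck, it was 99.9 to 115 on restricted arrays and 127 in the control at 1 month, and 121 to 176 on restricted arrays and 117 in the control at 1 week. For 6 B cell markers, led by Cd22 and Fcrla, it was 49.0 to 78.4 on restricted arrays and 54.3 in the control at 1 month, and 65.7 to 85.6 on restricted arrays and 77.7 in the control at 1 week. Ifng, interferon-gamma itself, was at 0.3 to 8.0 over all arrays. Of the 16 T and NK cell markers 2 passed the filter. The 12 muscle fibre markers, led by Acta1 and Atp2a1, summed to 62208 to 77516 on restricted arrays and 91296 in the control at 1 month, and 97629 to 101102 on restricted arrays and 88509 in the control at 1 week. In the 1-week control Myh7 was at 464.2 and Myh2 at 3370.8, against 1109.2 to 2915.9 and 5593.2 to 6604.3 on restricted arrays at 1 week. With the 1-week control and 5% CR arrays exchanged, these low values were those of the 5% CR array. The control then had Myh7 at 2315.4 and Myh2 at 6604.3. The fibre sum at 1 week was then 97991 in the control and 88509 to 101102 on restricted arrays, on both sides of it. In restricted against control 9 of the 12 had estimates below 0 and 3 above it, and none passed by limma. The part of these cell types in the values of Irgm, Cd74, Ctss and Bst2 was not tested.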

How the data were processed

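The authors deposited 1 signal intensity per probe set, computed with MAS5 and not on a log scale, for 1 array per group with RNA of 5 pooled rats. Within a duration all arrays had been scaled to 1 trimmed mean (2nd to 98th percentile). Every sample column was used.

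Signals under 0.1 were set to 0.1 and taken to log2. Of 31099 probe sets, 57 controls were left out, and those at or above the 50th percentile of mean log2 signal (17.8) were tested. The platform annotation gave 20832 probe sets 1 gene, 436 several and 9831 none.

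Fits used lmFit and eBayes with trend of limma 3.58.1 (R 4.3.3), with Benjamini-Hochberg adjustment over all 15521 tested probe sets at 0.05. The dose trend and restricted against control had duration as a factor and 7 residual degrees of freedom, and the restricted arrays alone 5. Duration used signals scaled to a common trimmed mean, with the level of CR as a covariate, and was not separated from age at sampling. Dose by duration was the difference of slopes (6 residual degrees of freedom). The residual spread came from arrays of different groups, so p-values measure departure from these models rather than from replicates.

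The genes, lists and rules were chosen with earlier results of these data known. Named were every probe set of the 9 genes, of each pathway list up to 4 genes with the largest estimate that passed the threshold (where none did, 2 by smallest p), the 2 brightest markers of each cell list and the 3 most alike genes. Ctsl, Ifitm2, Ifitm3, Kdr, C1qb, C1qc, Cd163, Fcgr1a, Ifng and Cd3d were added after their values were seen. Each gene of a list was read by its brightest probe set (9170 genes). The fitting step was tested on simulated data. Alternatives were quantile normalization, median centring, eBayes without trend, 32 added to the signal, no filter, a filter at the 70th percentile, each array left out, the 1-week control and 5% CR arrays exchanged, each duration alone, and, for duration, deposited signals or the level of CR as a block. Applying them to the pathway lists, the called markers and the ratios was added after the data were seen.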

Additional observations from a re-analysis of the deposited data

Results flagged for a closer look

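Psmb8 was singled out because its 4 ratios to control were all above 0 at 1 month (0.22 to 1.21 on the log2 scale, mean 0.56) and all below 0 at 1 week (-0.75 to -0.20, mean -0.50), a gap of 1.06 between the means. Among all tested probe sets 8.67% had ratios of opposite sign in this way. The difference was not tested in this form, and the difference between the slopes had an adjusted p of 0.812 by limma. With the 1-week control and 5% CR arrays exchanged, 6 of 8 ratios were above 0.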

How the results depend on the processing

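With 1 array per group the precision is limited by the number of arrays, and signals near 17.8 lie close to the filter. The dose trend called 310 probe sets, and 196 with median centring, 73 by eBayes without trend, 161 with the 1-week control and 5% CR arrays exchanged, 6 for 1 month alone, 109 for 1 week alone and 86 to 368 with each array left out. Restricted against control called 311, and 77 without trend, 1 with the exchange and 27 to 455 with an array left out. Duration called 1553, and 5263 on signals as deposited. The restricted arrays alone called 38, and 24 with median centring, 1 without trend and 6 to 35 with an array left out. Dose by duration called 0 (940 at an unadjusted p under 0.05 by limma), and 0 to 2 with an array left out. Of the pathway genes 3 were called in the dose trend, against 0 for 1 month alone, 0 for 1 week alone and 1 to 3 with an array left out. Of the 10 probe sets 3 had all ratios below 0, and 1 with the exchange. The share called higher was 47.1% in the dose trend and 58.2% with median centring, 52.6% and 70.8% in the restricted arrays alone, and 44.5% in duration, with 68.6% under median centring and 3.33% on signals as deposited.

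The calls of Irgm were also lost by eBayes without trend (adjusted p = 0.0916 for the slope and 0.104 for restricted against control by limma), and that of Cd74 with quantile normalization (0.0512), without a filter (0.0543), without trend (0.0944) and with the level of CR as a block (0.0538). Some estimates turned sign. The slope at 1 week alone was 0.0078 for B2m (second probe set), -0.20 for Psmb8, -0.015 for Cd74 and -0.0066 for RT1-Da, and at 1 month alone 0.030 for B2m (first probe set). Restricted against control was -0.010 for Psmb8 with 32 added to the signal and, with the exchange, 0.32 for Igtp (second probe set), against -0.57 as labelled. Duration was 0.015 for Irf1 and -0.012 for B2m (second probe set) with quantile normalization, 0.085 for Irf1 and 0.0053 for B2m (first probe set) with median centring, and -0.20 for B2m (second probe set) and -0.11 for RT1-Da on signals as deposited.

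With each array left out, slopes spanned -0.17 to 0.014 for Igtp (second probe set), -0.038 to 0.0095 for B2m (first probe set) and -0.055 to 0.12 for Psmb8. Restricted against control spanned -0.50 to 0.56 for Psmb8, -0.098 to 0.070 for Psmb9 and -0.11 to 0.18 for RT1-Da, and duration -0.058 to 0.049 for Irf1 and -0.026 to 0.042 for B2m (second probe set). The cause of these changes was not tested. The level of CR as a block pairs the 1-month and 1-week arrays of a level, and of the 10 probe sets it changed the call of Cd74 alone. No analysis paired by replicate was possible because each group had 1 array and the labels give no replicate numbers.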
